A study of Homo sapiens with 8 samples.

Results

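The translation initiation and elongation factors described here were all genes of the expression table whose symbol began with EIF or EEF followed by a digit. The EIF2AK kinase genes (5 entries), 2 antisense or divergent transcripts and 68 pseudogenes were left out, which left 66 of the 27996 genes in the table. HL60/ADR is a derivative of HL60, a human promyelocytic leukemia line, that was kept in Adriamycin (doxorubicin, an anthracycline) at 0.5 μg/ml, and it was grown free of the drug for the last week before RNA was taken. HL60 is the parental line, grown without the drug. HL60/ADR is represented by 1 derived line, so the difference between the lines cannot be told apart from a difference between this line and others made the same way. Each line gave 2 input libraries (RNA not pulled down, which also served as RNA-seq) and 2 IP libraries (RNA fragments pulled down with an antibody against N6-methyladenosine, m6A), 8 samples in all. The HL60/ADR samples carry that name in their titles and columns, and their other labels name HL60 as the source, so their assignment rests on the titles.

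Translation of an mRNA starts when the small ribosomal subunit, carrying eIF1, eIF1A, eIF3, eIF5 and the initiator tRNA on eIF2, is brought to the capped 5′ end by the eIF4 factors and scans to the start codon. eIF2B recharges eIF2 with GTP, the 4E-binding proteins keep eIF4E from eIF4G, and eIF5B joins the large subunit. During elongation eEF1A delivers aminoacyl-tRNA, the eEF1B subunits recharge eEF1A with GTP, and eEF2 moves the ribosome along the mRNA. Many mRNAs of ribosomal proteins and of elongation factors carry a run of pyrimidines at their 5′ end, known as a TOP motif, through which mTORC1 and LARP1 regulate their translation.

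Expression was measured as FPKM (fragments counted per length of transcript and per size of the library), and 62 of the 66 factors had a mean FPKM of 0.5 or more over the 4 input libraries and were tested. Differences are given as HL60/ADR minus HL60 on the log2(FPKM + 1) scale, with the standard error of a limma fit over all 13053 genes tested, and a gene was counted as higher or lower at a Benjamini-Hochberg adjusted p under 0.05 (two-sided). Of the 62 factors, 22 were higher in HL60/ADR, 35 were lower and 5 did not pass. Over all tested genes 30.9% were higher and 48.8% were lower, so the counts of the factors have to be read beside these shares. A log2 difference beyond 1 on this scale, called over 2-fold here, was found in 1 factor that was higher (EEF1A1) and in 13 that were lower. Over all tested genes the shares were 8.93% higher and 13.8% lower. By the plain ratio of mean FPKM, HL60/ADR over HL60, EIF4G3 (2.10) and EEF1AKMT3 (2.26) were also over 2-fold higher. By that ratio EIF2B3 (0.495) and EIF3J (0.4997) were also over 2-fold lower. The median difference of the factors was -0.16, and that of all tested genes was -0.18. Summed FPKM was 208300 and 209303 in the HL60/ADR libraries and 185825 and 186714 in the HL60 libraries. Scaling the libraries by their median ratio brought the median of all genes to -0.0028 and the counts to 28 higher and 27 lower factors, with 6 over 2-fold higher and 8 over 2-fold lower, and scaling to the same sum brought them to -0.38, with 19 higher and 38 lower. In RNA from bulk cultures, fewer cells of a type and less RNA per cell cannot be told apart. The replicates are called biological duplicates, but no source used here says that they came from separate cultures, so the p-values measure the spread between these libraries, which may be technical, and the reads behind a gene's FPKM are not known here.

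Elongation factors had a median above 0, while the median of initiation factors lay near that of all tested genes. Of the 49 tested genes of initiation factors and their binding proteins, 15 were higher, 30 were lower and 4 did not pass. The genes of eIF5A are counted among them. The median of this set was -0.23, beside -0.18 over all tested genes, of which 30.9% were higher and 48.8% were lower. Of the 6 tested elongation factor genes, 5 were higher and 1 was lower, with a median of 0.91. Together the 66 factors made up 3.67% and 3.64% of the summed FPKM in the HL60/ADR libraries and 2.60% and 2.62% in the HL60 libraries. Elongation factors took 2.80% and 2.77% in HL60/ADR, against 1.49% and 1.53% in HL60. Initiation factors and their binders took 0.851% and 0.850% in HL60/ADR, against 1.07% and 1.07% in HL60.

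**Figure D1:**
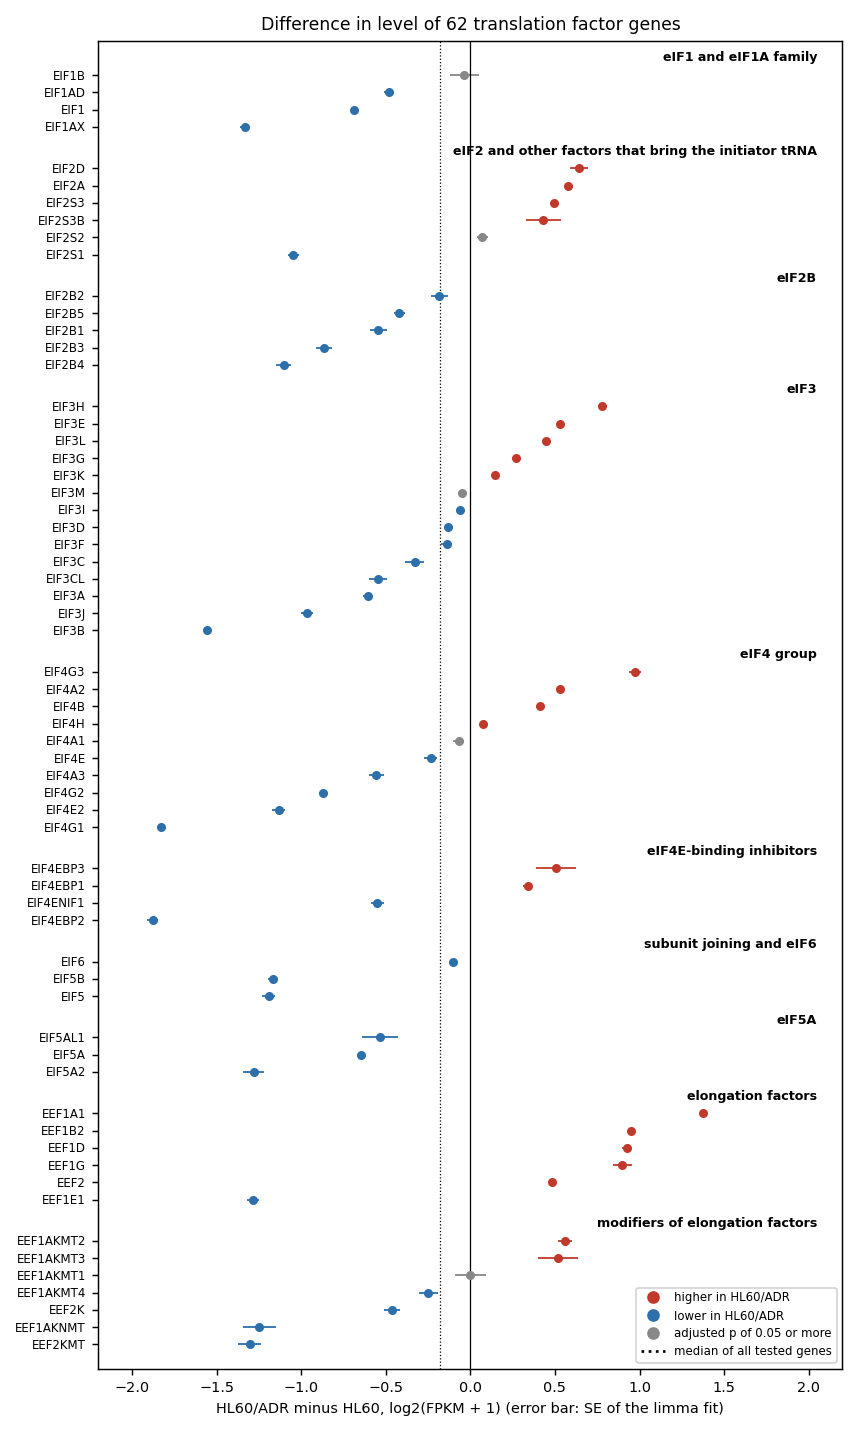
Difference between HL60/ADR and HL60 (x axis, log2(FPKM + 1)) of each of the 62 tested factors, grouped by role, with the standard error of the limma fit. EEF1A1 stands furthest to the right at 1.38, and EIF4EBP2 (-1.88) and EIF4G1 (-1.83) stand furthest to the left.

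The bases around the start of 10 of these genes are shown, since a TOP motif begins at the first transcribed base. Each line gives 20 bases before and 10 bases from the transcription start that RefSeq lists (GRCh38.p14, the strand of the gene), 5′ to 3′, with a run of C and T that begins with a C at the start itself in capitals. The capitals stop where the window stops. The first 6 genes were picked for the largest differences among the factors that were higher in HL60/ADR and hold such a run. Their direction and their runs therefore follow from the choice. The last 4 hold none. Of these EIF4EBP2, EIF3B and EIF1AX were picked for the lowest differences among the lower factors with 1 listed start. EEF1G, which was higher, was picked by name after its value was seen.
EEF1A1, chr6:73521023-73521052, minus strand: cagtagtcgccgtgaacgttCTTTTTCgca
EEF1B2, chr2:206159875-206159904, plus strand: attttccggtctcttcgggtCCTTTTTCCT
EIF2D, chr1:206612456-206612485, minus strand: gccctggtttccagccgggcCCTTTTCgcg
EIF2A, chr3:150546767-150546796, plus strand: aactctcacccgagcggtttCTCTTTCCgg
EIF4A2, chr3:186783557-186783586, plus strand: gggtggttgggcgccgctgtCTTTTCagtc
EIF2S3, chrX:24054936-24054965, plus strand: cagccggggtgatttccttcCTCTTTTggc
EIF4EBP2, chr10:70404125-70404154, plus strand: tctggctcccgccttcgcccgcttccggtc
EIF3B, chr7:2354807-2354836, plus strand: ggcctccccgtcgcacgcacatggctgggc
EIF1AX, chrX:20141829-20141858, minus strand: gcgacgcaaagagtcgcggcgccatttgct
EEF1G, chr11:62573882-62573911, minus strand: ccttctctcccgggcggcttactttgcggc

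A pyrimidine start was defined as a C at the first base followed by at least 4 bases that are C or T, read on the strand of the gene, and a gene counted where any of its listed starts matched. Of the 52 factors listed in the promoter table, 13 had a pyrimidine start (25%), and 11 had more than 1 listed start. Over all of that list, 5.14% of the 27305 genes, and 4.07% of the 35116 promoters of the same length, had one. That list also holds genes that were not tested here. Among tested genes, 13 of 49 factors and 676 of all 8707 listed genes had one. Of the 13 factors with a pyrimidine start 10 were higher in HL60/ADR, 2 were lower (EIF3D and EIF3F) and 1 did not pass (EIF3M), with a median difference of 0.48. Of the 36 tested factors without one 5 were higher, 29 were lower and 2 did not pass, with a median of -0.55. The 13 tested factors with no listed start, of which 7 were higher, 4 were lower and 2 did not pass, enter neither count. The 5 that were higher without such a start were EIF4G3, EEF1G, EEF1AKMT2, EIF4EBP3 and EIF4H, chosen by name after their values were seen. Under scaling by the median ratio EIF3D, EIF3F and EIF3M changed sign to 0.10, 0.06 and 0.17, and under scaling to the same sum EIF3K (main value 0.14) changed sign to -0.02.

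The same split was counted over all tested genes, the factors included. Of 676 with a pyrimidine start 317 were higher in HL60/ADR, 260 were lower and 99 did not pass, with a median of 0.08, and of 8031 without one 2296 were higher, 4400 were lower and 1335 did not pass, with a median of -0.25. Ribosomal protein genes with a pyrimidine start were higher in 47 of 47 cases, with a median of 1.46. Those without such a start were not counted, so whether their levels differ by the start is not known here. With the ribosomal protein genes and the factors taken out, 616 genes with such a start remained, of which 260 were higher, 258 were lower and 98 did not pass, with a median of 0.03. These counts were made after the values were seen and describe the listed starts. Where transcripts of these cells begin was not measured.

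**Figure D2:**
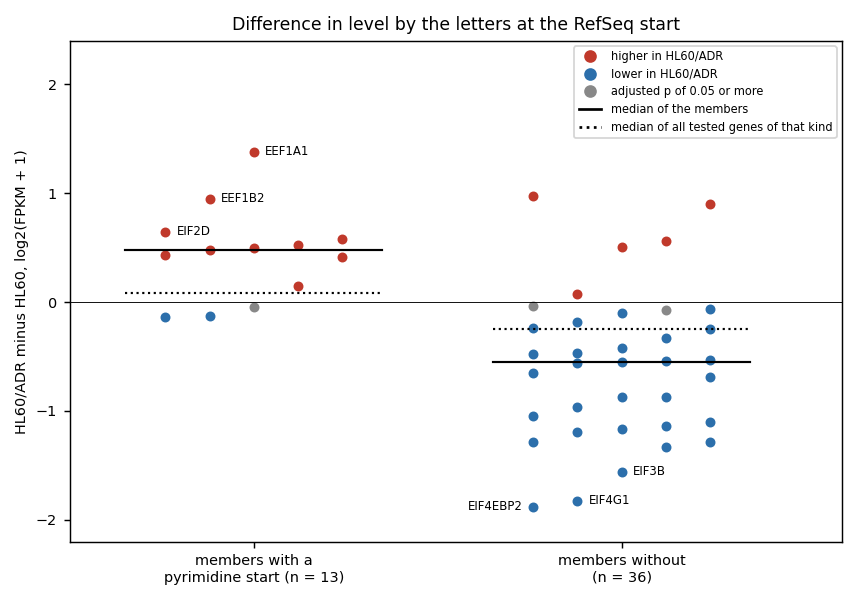
Difference between HL60/ADR and HL60 (y axis, log2(FPKM + 1)) of the 49 tested factors listed in the promoter table, with a pyrimidine start on the left (13 genes) and without on the right (36 genes). Solid lines are the medians of the factors (0.48 and -0.55), and dotted lines are the medians of all tested genes of that kind (0.08 and -0.25).

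Among elongation factors, EEF1A1, which encodes the eEF1A that carries aminoacyl-tRNA to the ribosome, had the largest positive difference of the factors. EEF1A1 (ENSG00000156508, chr6:73515750-73523797) had 3259 and 3335 FPKM in the HL60/ADR libraries and 1258 and 1280 FPKM in the HL60 libraries. Both HL60/ADR libraries lay above both HL60 libraries, with means 2.60-fold apart and a log2 difference of 1.38 ± 0.02 (SE, n = 2 each, limma adjusted p = 9.4e-06). It ranked 3 and 3 among all genes of the HL60/ADR libraries by FPKM and 5 and 5 in the HL60 libraries, and held 1.57% and 1.59% of the summed FPKM in HL60/ADR, against 0.677% and 0.686% in HL60. Reads of EEF1A1 and of its processed pseudogenes are hard to tell apart. The 19 EEF1A1 pseudogenes in the table summed to 1487 and 1467 FPKM in HL60/ADR and to 520.9 and 468.2 FPKM in HL60, and with their FPKM added the difference of EEF1A1 was 1.44.

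The subunits of eEF1B, the complex that recharges eEF1A, were higher as well. EEF1B2 differed by 0.95 ± 0.02, EEF1D by 0.92 ± 0.03 and EEF1G by 0.90 ± 0.06 (log2, SE, n = 2 each), and all passed. EEF1D had 39.4 and 38.7 FPKM in HL60/ADR and 19.9 and 20.3 FPKM in HL60. EEF2, the translocase, had 1022 and 1031 FPKM in HL60/ADR and 724.5 and 745.4 FPKM in HL60, a log2 difference of 0.48 ± 0.02 (limma adjusted p = 6.5e-05). The libraries of the lines did not overlap for any of these genes. The level of EEF1A1 relative to EEF1B2 was 8.54 and 8.58 in HL60/ADR, against 6.38 and 6.39 in HL60.

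The elongation factor gene that was lower was EEF1E1, whose product is a scaffold of the multi-tRNA synthetase complex. EEF1E1 had 8.10 and 7.76 FPKM in HL60/ADR and 21.1 and 20.5 FPKM in HL60, a log2 difference of -1.29 ± 0.04 (SE, limma adjusted p = 2.4e-05). EEF1A2, the isoform of muscle and neurons, had 0.216 and 0.011 FPKM in HL60/ADR and 0.200 and 0.141 FPKM in HL60 and was not tested. The readthrough genes EEF1AKMT4-ECE2 and EEF1E1-BLOC1S5 were at or near 0 in all 4 libraries.

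Of the 7 genes whose products modify elongation factors, 2 were higher, 4 were lower and 1 did not pass. EEF2KMT, which methylates eEF2, had 0.704 and 0.642 FPKM in HL60/ADR and 3.30 and 2.98 FPKM in HL60, a log2 difference of -1.31 ± 0.07. EEF1AKNMT, a methyltransferase of eEF1A also known as METTL13, had 5.35 and 6.65 FPKM in HL60/ADR and 15.4 and 15.8 FPKM in HL60, a log2 difference of -1.25 ± 0.10. EEF1AKMT4, another methyltransferase of eEF1A, had 14.0 and 15.2 FPKM in HL60/ADR and 17.0 and 18.2 FPKM in HL60, a log2 difference of -0.25 that did not pass under scaling by the median ratio (-0.03). Both HL60/ADR libraries lay below both HL60 libraries for these 3 genes. EEF2K, the kinase that phosphorylates and inhibits eEF2, was lower by a log2 difference of -0.46 ± 0.05. EEF1AKMT2 (0.56) and EEF1AKMT3 (0.52) were higher, and EEF1AKMT1 (-0.00033) did not pass.

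**Figure D3:**
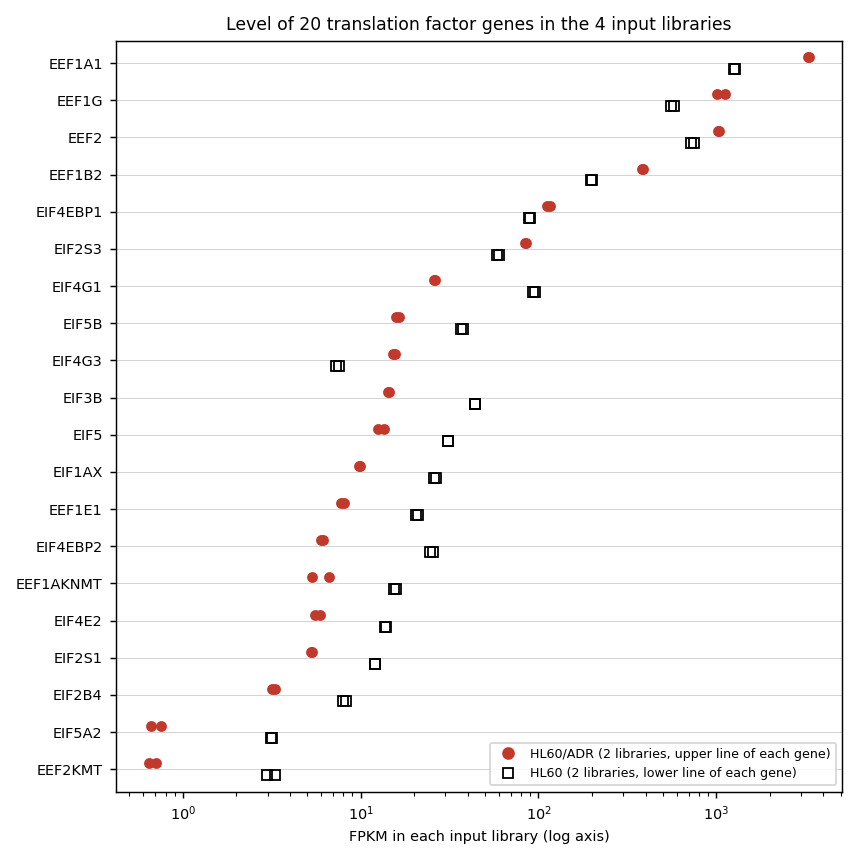
FPKM (x axis, log scale) of 20 factors in each of the 4 input libraries, with HL60/ADR as filled circles on the upper line of each gene and HL60 as open squares on the lower line. EEF1A1 lies at 3259 and 3335 in HL60/ADR against 1258 and 1280 in HL60, and the libraries of a line lie close together beside the distance between the lines.

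In the group that recruits mRNA to the ribosome, the main scaffold was lower and its paralog was higher. EIF4G1, which holds eIF4E and eIF4A and binds eIF3, had 25.7 and 26.2 FPKM in HL60/ADR and 93.7 and 96.1 FPKM in HL60. The mean in HL60/ADR was lower by 3.66-fold, with a log2 difference of -1.83 ± 0.02 (limma adjusted p = 8.7e-06). EIF4G3, a paralog with a like role, differed by 0.98 ± 0.04, and EIF4G2, which lacks the eIF4E site, by -0.87 ± 0.02. The level of EIF4G1 relative to EIF4G3 was 1.69 and 1.67 in HL60/ADR and 12.5 and 13.3 in HL60.

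The cap-binding and helicase genes were split. EIF4E2, a cap-binding homolog that does not recruit eIF4G in the way eIF4E does, had 5.57 and 5.94 FPKM in HL60/ADR and 13.9 and 13.7 FPKM in HL60, a log2 difference of -1.14 ± 0.04. EIF4E itself was lower by a log2 difference of -0.23 ± 0.04, and under scaling by the median ratio it did not pass (-0.04). A further homolog, EIF4E3, stayed below the level for the test, with 0.801 and 0.773 FPKM in HL60/ADR and 0.199 and 0.135 FPKM in HL60. Of the RNA helicases, EIF4A2 was higher (0.53 ± 0.02), EIF4A3, a core protein of the exon junction complex, was lower (-0.56 ± 0.04) and EIF4A1 did not pass (-0.07 ± 0.03). The level of EIF4A1 relative to EIF4A2 was 1.18 and 1.10 in HL60/ADR and 1.73 and 1.75 in HL60.

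The helicase cofactors EIF4H and EIF4B had the highest mean FPKM of this group over the 4 libraries, though EIF4G1 lay above EIF4B in HL60. EIF4B had 123.6 and 124.8 FPKM in HL60/ADR and 93.0 and 93.0 FPKM in HL60, a log2 difference of 0.41 ± 0.02 (limma adjusted p = 6.7e-05). EIF4H had 118.0 and 119.3 FPKM in HL60/ADR and 112.0 and 113.0 FPKM in HL60, a log2 difference of 0.08 ± 0.02. The libraries of the lines did not overlap for either gene, but the difference of EIF4H turned to -0.09 when the libraries were scaled to the same sum. In the group as a whole 4 of 10 tested genes were higher, 5 were lower and 1 did not pass.

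The proteins that bind eIF4E and block its use moved in opposite directions. EIF4EBP2 had 6.11 and 6.01 FPKM in HL60/ADR and 24.4 and 25.5 FPKM in HL60, the lowest log2 difference of all factors at -1.88 ± 0.04 (limma adjusted p = 1.3e-05). The mean in HL60/ADR was lower by 4.12-fold. EIF4EBP1 had 111.0 and 115.7 FPKM in HL60/ADR and 89.8 and 88.9 FPKM in HL60, a log2 difference of 0.34 ± 0.03, and EIF4EBP3 was higher at a low level (0.51 ± 0.12). EIF4EBP1 was the most abundant of these genes in both lines, and its level relative to EIF4EBP2 was 18.2 and 19.3 in HL60/ADR against 3.68 and 3.48 in HL60. EIF4ENIF1, which carries eIF4E to the nucleus and to P-bodies, was lower by a log2 difference of -0.55 ± 0.04.

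The subunits of eIF2, the heterotrimer that holds the initiator tRNA, did not move together. EIF2S1, the alpha subunit that stress kinases phosphorylate, had 5.29 and 5.30 FPKM in HL60/ADR and 12.0 and 12.0 FPKM in HL60, a log2 difference of -1.05 ± 0.03 (limma adjusted p = 2.8e-05). EIF2S3, the gamma subunit that binds the tRNA, had 83.9 and 84.7 FPKM in HL60/ADR and 60.4 and 58.8 FPKM in HL60, a log2 difference of 0.49 ± 0.02. The beta subunit gene EIF2S2 had 50.5 and 49.3 FPKM in HL60/ADR and 48.8 and 46.3 FPKM in HL60 and did not pass (0.07 ± 0.03, limma adjusted p = 0.12). The level of EIF2S3 relative to EIF2S1 was thus 15.9 and 16.0 in HL60/ADR and 5.03 and 4.89 in HL60. EIF2A (0.58 ± 0.03) and EIF2D (0.64 ± 0.05), which can bring an initiator tRNA without eIF2, were higher. EIF2S3B (0.43 ± 0.10), a near copy of EIF2S3 that may share its reads, was higher too.

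All 5 subunit genes of eIF2B, the exchange factor of eIF2, were lower, with a median of -0.54. EIF2B4 had 3.16 and 3.32 FPKM in HL60/ADR and 8.26 and 7.96 FPKM in HL60, a log2 difference of -1.10 ± 0.04. EIF2B1 had 12.9 and 13.2 FPKM in HL60/ADR and 18.6 and 20.4 FPKM in HL60, a log2 difference of -0.54 ± 0.05. EIF2B5, the catalytic subunit, had 8.24 and 7.95 FPKM in HL60/ADR and 11.1 and 11.3 FPKM in HL60, a log2 difference of -0.42 ± 0.03. The libraries of the lines did not overlap for these genes. EIF2B3 differed by -0.87 ± 0.05, and EIF2B2 by -0.18 ± 0.05. Under scaling by the median ratio EIF2B2 differed by -0.0069 and did not pass.

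Of the eIF1 and eIF1A genes, whose products hold the scanning ribosome open, 3 were lower and 1 did not pass (EIF1B, -0.04 ± 0.08). EIF1 had 51.4 and 51.2 FPKM in HL60/ADR and 83.7 and 82.7 FPKM in HL60, a log2 difference of -0.69 ± 0.02. EIF1AX had 9.89 and 9.81 FPKM in HL60/ADR and 26.7 and 26.0 FPKM in HL60, a log2 difference of -1.33 ± 0.03. With the FPKM of its 1 listed pseudogene added, which was 13.9 and 13.6 in HL60/ADR and 17.4 and 17.1 in HL60, the difference of EIF1AX was -0.86 and no longer beyond 2-fold. EIF1AD, a protein related to eIF1A in sequence, had 10.1 and 9.92 FPKM in HL60/ADR and 14.4 and 14.4 FPKM in HL60, a log2 difference of -0.48 ± 0.03.

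The genes of eIF3, the large scaffold on the small subunit, spread on both sides of 0, with 5 of 14 higher, 8 lower and 1 that did not pass and a median of -0.10. EIF3B, a core subunit, had 14.3 and 14.4 FPKM in HL60/ADR and 44.2 and 44.2 FPKM in HL60, a log2 difference of -1.56 ± 0.02 (limma adjusted p = 9.8e-06). EIF3A, the largest subunit, had 51.0 and 53.1 FPKM in HL60/ADR and 79.5 and 80.1 FPKM in HL60, a log2 difference of -0.61 ± 0.03. The loosely bound subunit gene EIF3J was lower by a log2 difference of -0.97 ± 0.04. EIF3A and EIF3B form the core of the complex with the C subunit, whose near-identical copies EIF3C (-0.33 ± 0.06) and EIF3CL can exchange reads. Under scaling by the median ratio EIF3C differed by -0.10 and did not pass. EIF3CL had 91.4 and 82.4 FPKM in HL60/ADR and 127.7 and 127.1 FPKM in HL60, a log2 difference of -0.55 ± 0.05.

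The subunits that were higher were EIF3H (0.78 ± 0.03), EIF3E (0.53 ± 0.02), EIF3L (0.45 ± 0.02), EIF3G (0.27 ± 0.02) and EIF3K (0.14 ± 0.02). EIF3I, the most abundant eIF3 gene, had 122.4 and 122.3 FPKM in HL60/ADR and 128.8 and 127.0 FPKM in HL60, a log2 difference of -0.06 ± 0.02. EIF3F had 7.57 and 7.39 FPKM in HL60/ADR and 8.27 and 8.42 FPKM in HL60, a log2 difference of -0.14 ± 0.03 (limma adjusted p = 0.017), which with the FPKM of its 2 pseudogenes added was -0.13 with an adjusted p of 0.084. The small differences of EIF3I, EIF3D, EIF3F and EIF3M changed sign under scaling by the median ratio.

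The factors of subunit joining were lower. EIF5, which triggers GTP hydrolysis on eIF2, had 13.5 and 12.6 FPKM in HL60/ADR and 31.0 and 31.1 FPKM in HL60, a log2 difference of -1.19 ± 0.04. EIF5B, the joining GTPase, had 15.8 and 16.4 FPKM in HL60/ADR and 37.7 and 36.9 FPKM in HL60, a log2 difference of -1.17 ± 0.03. EIF6, which keeps the large subunit from joining early, had 52.4 and 53.2 FPKM in HL60/ADR and 57.5 and 55.9 FPKM in HL60, a log2 difference of -0.10 ± 0.02 that became 0.12 under scaling by the median ratio.

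The genes of eIF5A, the hypusine-bearing factor that helps stalled ribosomes, were lower in 3 of 3 cases. EIF5A had 41.9 and 41.2 FPKM in HL60/ADR and 65.6 and 65.6 FPKM in HL60, a log2 difference of -0.65 ± 0.02. EIF5A2 had 0.662 and 0.753 FPKM in HL60/ADR and 3.12 and 3.19 FPKM in HL60, a log2 difference of -1.28 ± 0.06, and the retrogene EIF5AL1 differed by -0.53 ± 0.11. The libraries did not overlap for EIF5A or EIF5A2. The level of EIF5A relative to EIF5A2 was 63.2 and 54.7 in HL60/ADR, against 21.1 and 20.6 in HL60.

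Genes that act on or beside these factors were counted in 7 lists. Over the 57 tested genes of the lists together, 11 were higher, 35 were lower and 11 did not pass, with a median of -0.36 beside -0.18 over all tested genes. Of the eIF2 kinases and phosphatase subunits 2 of 9 were higher, 6 were lower and 1 did not pass, with PPP1R15B (-0.72), EIF2AK4 (-0.52) and PPP1CC (-0.38) furthest below 0 and PPP1R15A, the stress-induced partner of the phosphatase, at 0.34 and PPP1CB at 0.13. Of mTORC1, its regulators and its translational targets 2 of 12 were higher, 9 were lower and 1 did not pass. This list mixes mTORC1 with its inhibitors, of which AKT1S1 (-0.84), TSC2 (-0.44) and TSC1 (-0.32) were lower and DEPTOR did not pass. RPTOR, the subunit that binds substrates, differed by -1.51, LARP1, which binds TOP mRNAs, by -1.15 and MTOR, the kinase, by -0.92, while PDCD4, an inhibitor of eIF4A, differed by 0.99 and MLST8 by 0.50. A further list held poly(A)-binding proteins, MNK kinases and other translation regulators, among them MCTS1 and DENR. Of its 9 genes 2 were higher (PABPC1 at 0.27 and PAIP1 at 0.11), 2 were lower (MCTS1 at -0.32 and PABPC4 at -0.31) and 5 did not pass.

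The enzymes that make hypusine on eIF5A were on opposite sides, DHPS at 0.89 and DOHH at -1.07. In their list, which also holds the enzymes of diphthamide on eEF2, 2 of 8 were higher, 5 were lower and 1 did not pass, with DPH2 at -1.37, DPH3 at -0.80 and DPH6 at 0.47. Of the termination and recycling factors 0 of 5 tested were higher, 3 were lower and 2 did not pass by limma, and 0 were higher at an unadjusted p under 0.05. ABCE1, which splits ribosomes, differed by -1.47, ETF1, the release factor eRF1, by -1.38 and GSPT1, eRF3, by -1.19. Of the mitochondrial translation factors 1 of 9 was higher (MTIF3, 1.30), 7 were lower and 1 did not pass, with TSFM at -1.27, GFM1 at -0.76 and MTRF1L at -0.71. Of the selenocysteine genes 2 of 5 tested were higher (SEPSECS at 0.26 and SECISBP2 at 0.21) and 3 were lower (SEPHS2 at -1.48, SEPHS1 at -0.82 and EEFSEC at -0.50).

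**Figure D4:**
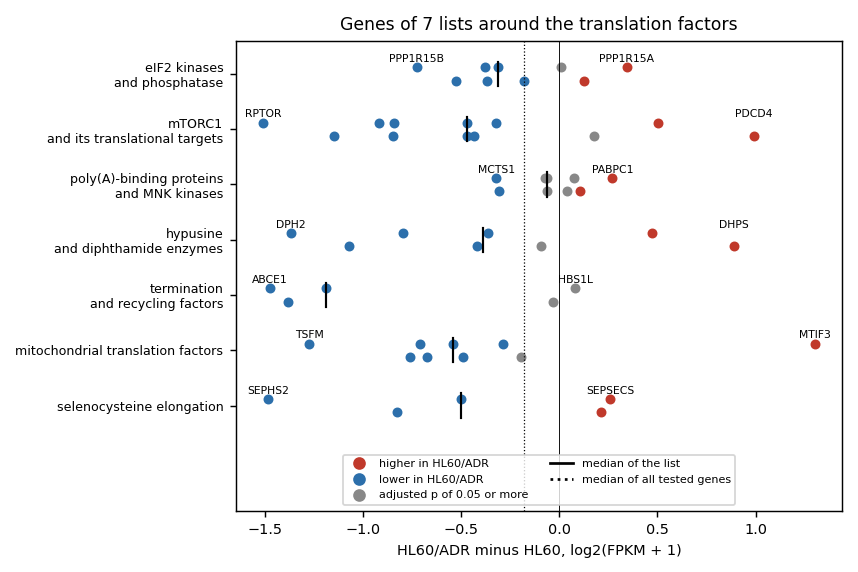
Difference between HL60/ADR and HL60 (x axis, log2(FPKM + 1)) of each tested gene of 7 lists, with the median of the list as a bar and the median of all tested genes (-0.18) as a dotted line. The termination and recycling factors have the lowest median of the lists at -1.19, and MTIF3 lies furthest to the right at 1.30.

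The label of the cells was checked against marker genes. All 8 promyelocyte markers were above 0 in every library, though ELANE was at only 0.406 and 0.244 FPKM in HL60. Their summed FPKM was 1334 to 1369 in HL60/ADR and 355.0 to 359.2 in HL60. Most of the gap between these sums came from CTSG, at 795.3 and 819 FPKM in HL60/ADR and 5.58 and 7.87 FPKM in HL60. Of the 8 markers 6 were higher, 1 was lower (CEBPA) and 1 did not pass. T cell markers summed to 55.6 to 56.3 FPKM in HL60/ADR and 0.561 to 0.946 FPKM in HL60, nearly all of it from CD3D, with CD3G at 0 to 0.013 FPKM. B cell markers summed to 4.46 to 4.96 FPKM in HL60/ADR and 8.34 to 9.06 FPKM in HL60, epithelial and fibroblast markers to 0.227 to 3.41 FPKM in HL60/ADR and 0.016 to 1.56 FPKM in HL60, and 0 of 4 erythroid markers were found by symbol. The part of these differences in the levels of the factors was not tested.

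In the MeRIP-seq data, peaks had been called by the authors once per line on the pooled replicates, so fold enrichment (IP over input) has no spread between replicates and is given with no test. The factors held 129 of 38834 peaks in HL60/ADR, in 48 genes, and 146 of 40550 peaks in HL60, in 54 genes. Peaks were listed in both lines for 46 factors, in HL60/ADR alone for EIF3M and EIF5AL1, and in HL60 alone for EEF1A2, EEF1B2, EEF2KMT, EIF1B, EIF2A, EIF3D, EIF4A1 and EIF4G2, 8 genes. The HL60 peak of EIF2A did overlap a peak of HL60/ADR, which was not assigned to EIF2A. The share of all genes with a peak in a single line was not counted here. The HL60/ADR peaks of EIF3M and EIF5AL1 had a log10 false discovery rate of -1.14 and -1.03, above 0.05 as a rate, and that of EIF3M was annotated to an exon of another gene. No peak was listed in either line for 10 factors, among them EIF4EBP2, EIF3I, EIF4H and EIF5A2. A false discovery rate of 0.05 or less was listed for 122 peaks of the factors in HL60/ADR (94.6%, beside 84.1% of all peaks) and for 130 in HL60 (89.0%, beside 80.1%).

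The median fold enrichment of the peaks of the factors was 3.19 in HL60/ADR and 2.47 in HL60, below the medians of all peaks, which were 5.32 in HL60/ADR and 3.86 in HL60. Most of these peaks were annotated to a 3′ UTR. The 3′ UTR held 71 peaks in HL60/ADR (55.0%, beside 45.2% of all peaks) and 80 in HL60 (54.8%, beside 45.9%). The 5′ UTR held 27 in HL60/ADR (20.9%, beside 21.9%) and 41 in HL60 (28.1%, beside 21.7%), and other exons held 31 in HL60/ADR (24.0%, beside 33.0%) and 25 in HL60 (17.1%, beside 32.4%). Of the 56 peaks annotated to an exon, 11 lay in an exon of another gene. Some peaks labelled 3′ UTR lay near the 5′ end of their gene. An example is an HL60/ADR peak of EEF1G at chr11:62573485-62573694, where the gene spans chr11:62559596-62574086 on the minus strand. The label 3′ UTR therefore does not by itself place a peak at the 3′ end of the main mRNA. The highest fold enrichment of the factors was that of a 3′ UTR peak of EIF3F in HL60/ADR, 39.0 (chr11:8000156-8000665). It overlapped an HL60 peak at 7.01 (chr11:7999557-8000545), which also overlapped another HL60/ADR peak of EIF3F at 5.32. The next highest was that of EIF4E3 in HL60, 24.3, a gene with only 0.199 and 0.135 FPKM in the HL60 input libraries.

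Of the peaks of the factors, 25 of 129 in HL60/ADR and 48 of 146 in HL60 overlapped no peak of the other line. The share over all peaks was not counted, so whether these counts are particular to the factors is not known. Peaks that overlapped 1 to 1 by at least 1 base formed 57 pairs in 36 factors. In 35 of the 57 pairs the HL60/ADR peak had the higher fold enrichment, with a median log2 ratio (HL60/ADR over HL60) of 0.17, beside 68.2% of the 15040 pairs of all genes, with a median of 0.34. Pairs over 2-fold higher in HL60/ADR numbered 11 among the factors, against 18.6% of all pairs, and pairs over 2-fold lower numbered 2, against 4.6% of all pairs. All 57 pairs had a false discovery rate of 0.05 or less in both lines.

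The widest pair lay at the 3′ end of EIF2B5 (3′ UTR, chr3:184144872-184145380 in HL60/ADR), with a fold enrichment of 18.3 in HL60/ADR and 3.23 in HL60, a log2 ratio of 2.50, while another pair of this gene ran the other way, at 1.48 in HL60/ADR and 1.98 in HL60. EIF5 had pairs in both directions. Its 3′ UTR pair was at 7.09 in HL60/ADR and 2.01 in HL60, with a log10 false discovery rate of -1.35 in HL60/ADR and -4.13 in HL60, and these peaks met only at their ends. Its exon pair at chr14:103337151-103337361 was at 1.27 in HL60/ADR and 2.76 in HL60. The other pair that was over 2-fold lower lay in the 5′ UTR of EIF4E2, at 2.67 in HL60/ADR and 5.52 in HL60, a log2 ratio of -1.05, where the HL60 peak was the wider (chr2:232550674-232557579, against chr2:232550674-232550974 in HL60/ADR).

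The other pairs over 2-fold higher were spread over the roles. In initiation factor genes and their relatives, EIF1AD was at 6.85 in HL60/ADR and 3.04 in HL60 in the 3′ UTR and at 3.77 in HL60/ADR and 1.63 in HL60 in the 5′ UTR. EIF3A was at 6.89 in HL60/ADR and 2.98 in HL60, EIF3B at 4.43 in HL60/ADR and 2.10 in HL60, and EIF3F at 7.69 in HL60/ADR and 2.69 in HL60, all in the 3′ UTR. The 3′ UTR pair of EIF4G1 that spans chr3:184331928-184335238 in HL60/ADR was at 9.78 in HL60/ADR and 4.61 in HL60, while its other pairs were at 4.68 in HL60/ADR and 3.66 in HL60 and at 1.58 in HL60/ADR and 1.91 in HL60. In genes of elongation factors and their modifiers, a 5′ UTR pair of EEF1D was at 16.4 in HL60/ADR and 6.96 in HL60. The 5′ UTR pair of EEF1AKNMT was at 8.03 in HL60/ADR and 3.93 in HL60. That of EIF5A was at 3.94 in HL60/ADR and 1.70 in HL60. The abundant elongation factors had narrower pairs, with EEF1A1 at 1.68 in HL60/ADR and 1.54 in HL60 and EEF2 at 6.92 in HL60/ADR and 4.90 in HL60, both in the 3′ UTR.

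**Figure D5:**
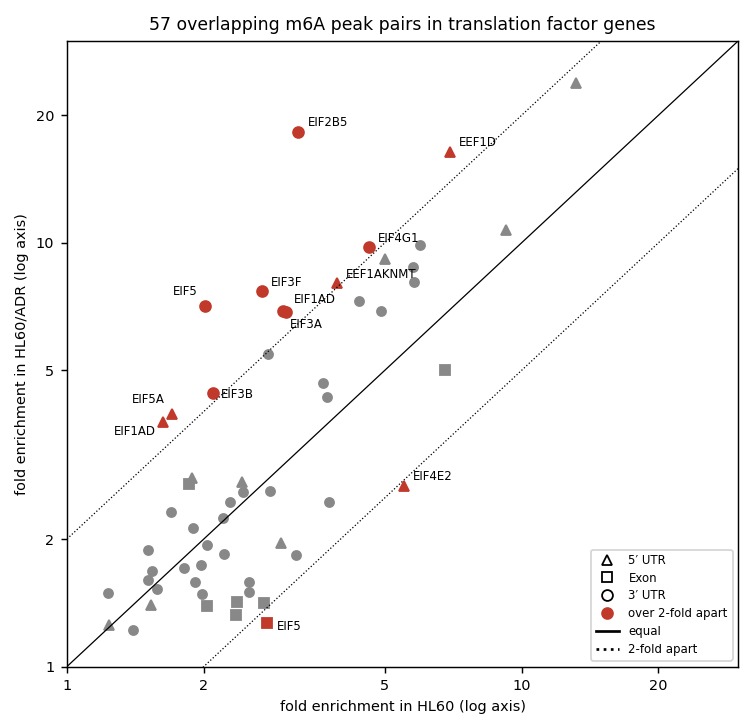
Fold enrichment in HL60/ADR (y axis, log scale) against fold enrichment in HL60 (x axis, log scale) of the 57 overlapping peak pairs of the factors, with symbols for the annotated region. Labelled are the 13 pairs over 2-fold apart, 11 of them above the upper dotted line, with EIF2B5 the furthest from equality at 18.3 in HL60/ADR and 3.23 in HL60.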

How the data were processed

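Poly(A) RNA of HL60/ADR and HL60 cells had been profiled by MeRIP-seq. The authors used fastp to clean reads and HISAT2 to align them (GRCh38, Ensembl release 101), and estimated the deposited FPKM of the 4 input libraries with StringTie. Peaks had been called with exomePeak at p under 0.05 on the pooled replicates and annotated with ChIPseeker, and the deposited lists give, for every peak, its fold enrichment as a ratio between IP and input, a p-value, and scores holding the log10 of p and of the false discovery rate. Tool versions were not given in the sources used here. How many reads lie behind an FPKM is unknown, raw counts and values of single IP libraries were not used, and so peaks have no error.

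Genes entered the test at a mean FPKM of at least 0.5, on log2(FPKM + 1), a scale that understates the change of low genes, by limma (version 3.58.1, under R 4.3.3) with an intensity trend (two-sided, cell line as the only term, Benjamini-Hochberg adjustment over 13053 genes). The script was tested on simulated data. Peaks were matched with bedtools 2.31.1, tables were made with Python 3.11.15 (pandas 2.3.3, numpy 2.4.6), and figures were drawn with matplotlib 3.10.9. Pairs were peaks of the same gene that overlapped 1 to 1 by their outer ends.

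The factors and the gene lists were chosen with earlier results of these data known. Values of each library were given by rule for factors over 2-fold apart, for the 2 most abundant of each role and for factors with a peak pair over 2-fold apart. Of each list up to 3 genes per direction were named, and inhibitors in the mTORC1 list were named besides. EEF1A2, EIF4E3 and the further genes in the plot of FPKM by library were chosen after their values were seen, as were the pyrimidine starts, read from RefSeq (GRCh38.p14), where 52 of the 66 factors were matched by symbol. Alternatives were other scalings, filters, pseudocounts and variance models, a replicate block, each library left out in turn, stricter peaks and a wider overlap. The addition of pseudogene FPKM was chosen after seeing the data.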

Additional observations from a re-analysis of the deposited data

How the results depend on the processing

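Main counts of factors were 22 higher, 35 lower, 1 over 2-fold higher and 13 over 2-fold lower, with a median log2 difference (HL60/ADR minus HL60) of -0.16. Scaling by the median ratio gave 6 over 2-fold higher, 8 over 2-fold lower and a median of 0.028, and turned EIF1B (0.16), EIF3D (0.096), EIF3F (0.063), EIF3I (0.16), EIF3M (0.17), EIF4A1 (0.16), EIF6 (0.12) and EEF1AKMT1 (0.19). Scaling to the same sum gave a median of -0.35 and turned EIF2S2 (-0.092), EIF3K (-0.018) and EIF4H (-0.088). These moves follow from the shift that each scaling gives to all genes. A pseudocount of 0.1 gave 3 over 2-fold higher and a median of -0.19. With no filter the median was -0.12. That median also takes in the factors below the level for the test, while the differences of the 62 tested factors stayed the same. Leaving out each library in turn, where the lone library of a line is assumed to vary like the others, gave 19 to 20 higher, 29 to 32 lower, 1 to 2 over 2-fold higher, 13 to 14 over 2-fold lower and medians of -0.19 to -0.14, and gave both signs for 2 factors that had not passed, EIF1B (-0.14 to 0.066) and EEF1AKMT1 (-0.10 to 0.10). The call of single factors was lost in 6 cases without HL60/ADR replicate 1, 6 without HL60/ADR replicate 2, 6 without HL60 replicate 1 and 9 without HL60 replicate 2. The fit with the replicate block gave 22 higher, 35 lower, 1 and 13 beyond 2-fold and a median of -0.16, and changed the call of 0 of 62 factors. The deviations of same-numbered libraries correlated at 0.043 across genes. A correlation over all genes cannot exclude a batch that same-numbered libraries share and that touches few genes. No pairing was assumed in the main fit.

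Of the peaks, a fold enrichment of 4 or more with a false discovery rate of 1e-05 or less left 21 factors with a peak in HL60/ADR, 18 in HL60 and 15 in both, with 12 pairs, a median log2 ratio of 0.66, 3 over 2-fold higher and 0 lower. A fold enrichment of 2 or more left 31 pairs, with a median of 0.60 and 1 over 2-fold lower, and a reciprocal overlap of 50% gave 61 pairs, a median of 0.13 and 1 over 2-fold lower. A search for m6A motifs in the peaks was not run, because it needs a genome. With 2 libraries per line and no counts, differences near the spread of low genes and all differences of fold enrichment stay without a measure of error beyond the one given.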

Other observations

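Fold enrichments repeated exactly among the peaks of the factors in HL60. The value 6.62 was listed for 7 peaks in 7 factors (EEF1A1, EIF2B2, EIF2B4, EIF2S1, EIF3B, EIF4B and EIF4E), with a log10 false discovery rate between -3.72 and -0.367. In the whole HL60 list the same value stood at 2097 peaks (5.17%), of which 1593 had a false discovery rate over 0.05. In HL60/ADR the most frequent value among the factors was 3.55, at 4 peaks of EEF1AKMT3 and EEF2K, and it stood at 528 peaks of the whole list (1.36%).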
